A study of Homo sapiens with 15 samples.

Results

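Antigen presentation by major histocompatibility complex (MHC) class I and class II molecules was described in THP-1 cells, a human monocytic leukaemia line, through 30 member genes, 13 of class I and 17 of class II. Members were chosen by gene symbol, from their part in antigen presentation, and every probe set annotated to one of them was taken. The array annotation used here names 19775 genes, and 88 of its 54613 probe sets that are not controls belong to members, 41 to class I and 47 to class II. Of these, 66 passed a filter on low values (above the array's median on at least 3 of the 15 arrays), 31 of class I and 35 of class II, among 28897 probe sets tested in all. They cover 28 members. The 5 probe sets of ERAP2 did not pass, and IFI30 was not analysed here.

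THP-1 cells were exposed for 6 h or 24 h to infliximab, a monoclonal antibody against tumour necrosis factor (TNF), or for the same times to CDP870, another agent directed against TNF. They were compared with untreated cells taken at 0 h. Each of these 5 groups was measured on 3 arrays. No dose is given in the sources used here, since the growth and treatment notes refer to an earlier publication, and all groups are the same cell line. The untreated cells were sampled only at 0 h, so an effect of an agent and of time in culture cannot be told apart in a comparison with them, whereas infliximab and CDP870 can be compared at matched times. The design text speaks of biological replicates, but separate cultures are described nowhere else in the labels. The p-values therefore rest on how far the arrays of a group spread, which may be technical.

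Class I molecules display peptides from inside the cell to cytotoxic T cells and natural killer cells. Peptides made by the proteasome are carried into the endoplasmic reticulum by the TAP transporter, trimmed by the ERAP aminopeptidases and loaded with the help of tapasin onto a heavy chain paired with beta-2 microglobulin. Class II molecules display peptides from endosomes to helper T cells, and are found mainly on professional antigen-presenting cells, monocytes among them. Their alpha and beta chains travel with the invariant chain CD74, which cathepsin S degrades before HLA-DM exchanges its last fragment for a peptide. The class II genes are switched on by CIITA, which binds to factors already on the promoter (the RFX complex, CREB and NF-Y), and NLRC5 plays the matching part for class I.

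All values are deposited log2 probe set levels, whose zero is not known, so a difference of 1 is a doubling and levels of different probe sets are not compared. A call means an adjusted p under 0.05 in a limma fit to all 15 arrays, with Benjamini-Hochberg adjustment over the 28897 tested probe sets and 3 arrays a group. Errors on differences are standard errors of that fit. As RNA was taken from whole cultures, fewer cells of a type and less RNA per cell cannot be told apart. Of 10 monocytic markers, 7 passed the filter, among them LYZ, TYROBP, FCER1G, SPI1 and CSF1R, while CD14 did not. Against untreated cells, 1 of these 7 was called higher with infliximab at 6 h and 2 at 24 h, and none lower. Of all probe sets, 4.02% and 3.78% rose. The called markers were FCER1G, by 0.65 at 6 h and 0.66 at 24 h, and CSF1R, by 0.73 at 24 h. The median difference of the 7 was 0.25 at 6 h and 0.39 at 24 h. SPI1 was not called, with means of 6.53 at 6 h and 7.33 at 24 h against 6.78 in untreated cells. Of the tested B cell, T and NK cell, dendritic and erythroid markers none was called higher with infliximab, and PAX5 and NKG7 fell by 0.53 and 0.40 at 6 h. The 2 tested dendritic markers went opposite ways without a call. FLT3 had means of 6.77 and 6.84 with infliximab at 6 h and 24 h against 6.48 untreated, and CD1C 4.08 and 4.17 against 4.37. Over all tested probe sets, the 3 infliximab 24 h arrays differed most among themselves, each with a mean correlation of 0.974 to 0.979 with the other arrays of its group, and control replicate 3 followed at 0.985, against 0.989 to 0.994 for the other 11 arrays. Control replicate 3 and infliximab 24 h replicates 5 and 6 lay apart from the other 12 on the second principal component. A fit without these 3 arrays leaves 2 untreated arrays and only replicate 7 of infliximab at 24 h, which is then assumed to vary like the other groups, so its 24 h values rest on 1 array.

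The promoter stretches below are printed because CIITA and NLRC5 act through short elements near the start site, and they show which of these letters stand before members that were higher with infliximab and members that were not called. Each is the 150 bases before a RefSeq start site in GRCh38.p14, read 5′ to 3′ on the gene's strand, with matches in capitals. For HLA-DPA1 the start site nearest HLA-DPB1 was chosen, and for HLA-DPB1 a start site was also fixed. Any other start site of these genes is not shown. The letters searched on both strands were ATTGG or CCAAT (the core bound by NF-Y), CAGCAAC or GTTGCTG (letters found in the X box bound by the RFX complex) and GAAA, any 2 bases and GAAA again, or on the other strand TTTC, any 2 bases and TTTC (letters of interferon response elements).
HLA-DPA1, chr6:33073650-33073799, minus strand: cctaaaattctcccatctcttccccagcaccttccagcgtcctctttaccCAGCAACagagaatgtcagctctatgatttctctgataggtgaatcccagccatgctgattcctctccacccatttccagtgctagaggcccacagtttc
HLA-DPB1, chr6:33075840-33075989, plus strand: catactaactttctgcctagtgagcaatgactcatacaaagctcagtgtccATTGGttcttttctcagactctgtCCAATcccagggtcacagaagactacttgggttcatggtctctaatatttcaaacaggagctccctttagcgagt
HLA-DRB1, chr6:32589849-32589998, minus strand: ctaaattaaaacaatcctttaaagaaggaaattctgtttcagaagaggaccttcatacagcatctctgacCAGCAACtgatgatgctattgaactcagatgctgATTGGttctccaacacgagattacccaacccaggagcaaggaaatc
HLA-DQB1, chr6:32666658-32666807, minus strand: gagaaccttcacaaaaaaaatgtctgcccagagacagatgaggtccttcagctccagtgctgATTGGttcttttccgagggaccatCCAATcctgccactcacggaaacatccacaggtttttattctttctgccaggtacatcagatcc
HLA-B, chr6:31357180-31357329, minus strand: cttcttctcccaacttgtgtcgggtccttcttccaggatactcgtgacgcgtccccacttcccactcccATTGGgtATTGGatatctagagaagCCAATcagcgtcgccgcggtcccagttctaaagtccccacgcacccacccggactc
B2M, chr15:44711367-44711516, plus strand: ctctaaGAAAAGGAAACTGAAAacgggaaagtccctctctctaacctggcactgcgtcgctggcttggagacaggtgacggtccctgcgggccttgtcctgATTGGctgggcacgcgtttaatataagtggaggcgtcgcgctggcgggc

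Promoters were found for 25 members, and HLA-E, HLA-DRA, CTSS, CIITA and NLRC5 were not among them. ATTGG or CCAAT stood before 5 of 11 class I and 10 of 14 class II members, against 23.5% of all 35116 promoters. CAGCAAC or its reverse stood before 3 of 14 class II members, HLA-DRB1, HLA-DPA1 and HLA-DOA, and 0 of 11 class I members, against 2.16% of all promoters. The spaced GAAA pair stood before 5 of 11 class I members, B2M, TAP1, TAP2, TAPBP and ERAP2, and 0 of 14 class II members, against 1.74%. In B2M the capitals hold 2 overlapping matches of these letters. A match describes these letters only and shows no binding. A member was counted if any of its listed promoters matched, while the percentages are shares of single promoters. Members with several start sites so have more chances of a match, and the counts and percentages are not like for like.

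With infliximab, 1 of 12 tested class I genes, the non-classical heavy chain HLA-E, was called higher than in untreated cells. Of 16 tested class II genes, HLA-DPA1 and CTSS were called higher at both times and HLA-DRA at 6 h. The classical heavy chain HLA-B and B2M were not called. At 6 h against untreated cells, 3 of 31 class I and 7 of 35 class II probe sets rose and none fell, against 4.02% of all tested probe sets that rose and 4.4% that fell. At 24 h, 2 of 31 class I probe sets rose, and 4 of 35 class II probe sets rose and 1 fell, against 3.78% and 2.79% of all. The class I counts of 3 and 2 probe sets all belong to HLA-E. All infliximab arrays lay above all untreated arrays in 17 class I and 13 class II probe sets at 6 h, against 12.4% of all, and in 8 and 10 at 24 h, against 8.67% of all. The median difference of the tested class I and class II probe sets was 0.17 and 0.18 at 6 h and 0.13 and 0.17 at 24 h, beside medians over all probe sets of -0.04 and -0.02. With 1 probe set per gene, that of highest mean, the medians were 0.065 and 0.153 at 6 h and 0.107 and 0.128 at 24 h. Many class I probe sets have probes shared between genes, and several genes have more than 1. Counts and medians over probe sets weigh such genes repeatedly.

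With CDP870, 0 of the 66 member probe sets were called at either time against untreated cells by limma, and 0% of all tested probe sets were. At an unadjusted p under 0.05, 1 member probe set stood out at 6 h (CD74 1567627_at, at 0.38) and 0 at 24 h, while 4.68% and 4.7% of all did. The class I and class II medians were -0.03 and -0.04 at 6 h and -0.02 and -0.07 at 24 h. A missed threshold does not show that nothing changed. For HLA-B 209140_x_at the 95% interval at 6 h ran from -0.21 to 0.11.

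**Figure D1:**
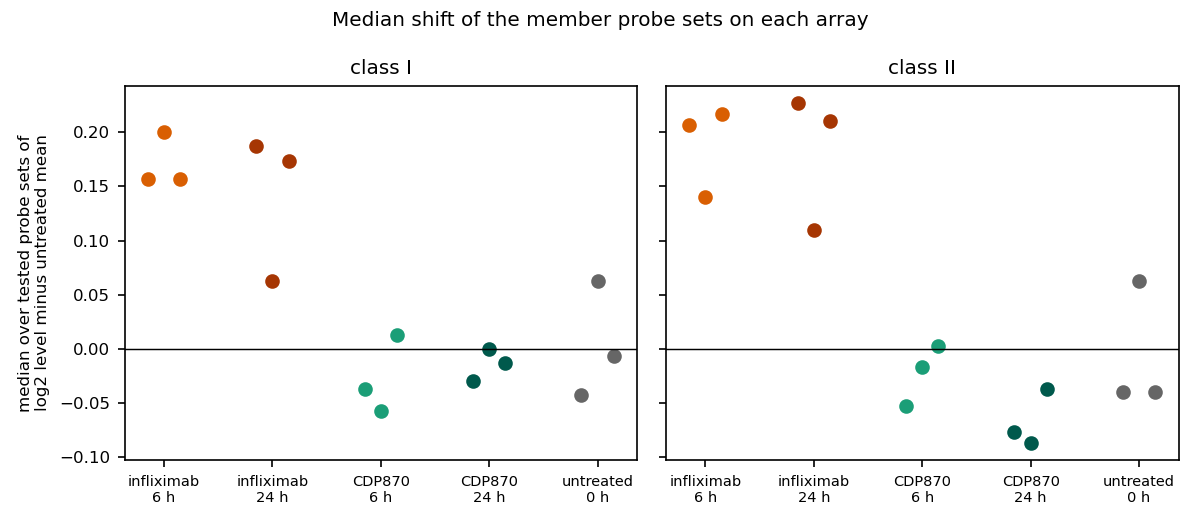
Median over the tested member probe sets of the log2 level minus the mean of the 3 untreated arrays (vertical axis), 1 point per array, for class I (left) and class II (right) in the 5 groups. Genes with several tested probe sets enter the median several times. The infliximab arrays lie between 0.06 and 0.20 for class I and between 0.11 and 0.23 for class II, and the CDP870 arrays lie between -0.06 and 0.01 for class I and between -0.09 and 0.00 for class II.

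Infliximab set directly against CDP870 at the same time gave more calls among class II than among class I probe sets. The smallest adjusted p at each time lay in class I. At 6 h, 7 of 31 class I probe sets and 11 of 35 class II probe sets were higher with infliximab and 1 class II probe set was lower, against 5.1% higher and 3.98% lower of all. At 24 h, 2 of 31 class I and 8 of 35 class II probe sets were higher and none was lower, against 4.73% and 1.79% of all. Medians for class I and class II were 0.22 and 0.21 at 6 h and 0.17 and 0.27 at 24 h, beside -0.03 and 0.00 over all probe sets. With 1 probe set per gene they were 0.06 and 0.184 at 6 h and 0.165 and 0.248 at 24 h. Every infliximab array lay above every CDP870 array in 17 class I and 18 class II probe sets at 6 h, against 17.4% of all, and in 14 and 17 at 24 h, against 11.6% of all. These comparisons share the infliximab arrays with those against untreated cells, so they are not separate support for them.

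Epithelial marker genes, which do not define a monocytic line, moved with infliximab as well. Of the 6 listed, 5 were tested (CDH1 was not, at means of 1.89 to 2.26). Against untreated cells, 4 rose at 6 h and all 5 at 24 h, where 4.02% and 3.78% of all probe sets rose. All 5 were higher than with CDP870 at both times, as were 5.1% and 4.73% of all at 6 h and 24 h. The linear levels of the 5 tested epithelial genes were summed on each array and the log2 of the sum taken. It was 9.81 to 10.11 with infliximab for 6 h and 9.95 to 10.09 for 24 h. With CDP870 it was 8.86 to 9.08 for 6 h and 8.95 to 9.14 for 24 h, and in untreated cells 9.32 to 9.57. The mean level of the hybridisation spike-ins, added during the array procedure, was also highest with infliximab at 6 h, at 7.75 ± 0.04, against 7.50 ± 0.12 with CDP870 at 6 h and 7.38 ± 0.13 in untreated cells (SD, n = 3 each). At 24 h the order of the agents was the other way, at 7.505 ± 0.15 with infliximab and 7.596 ± 0.20 with CDP870. With that level as a covariate, 0 of the 10 member calls remained for infliximab at 6 h against untreated cells, and calls over all probe sets fell to 0.626%, against 8.42% without it. The differences of those 10 probe sets were larger in 5 and smaller in 5, at 0.25 to 0.71 with the covariate and 0.28 to 0.81 without it, while their standard errors were 0.12 to 0.20 with it and 0.08 to 0.14 without it. HLA-DRA 210982_s_at, for example, differed by 0.70 with the covariate and 0.59 without it, and CTSS 202901_x_at by 0.50 and 0.81. Against CDP870 at 6 h, 3 class I and 3 class II calls were made with the covariate, among 2.6% of all probe sets. The part of the epithelial genes in the results was not tested.

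**Figure D2:**
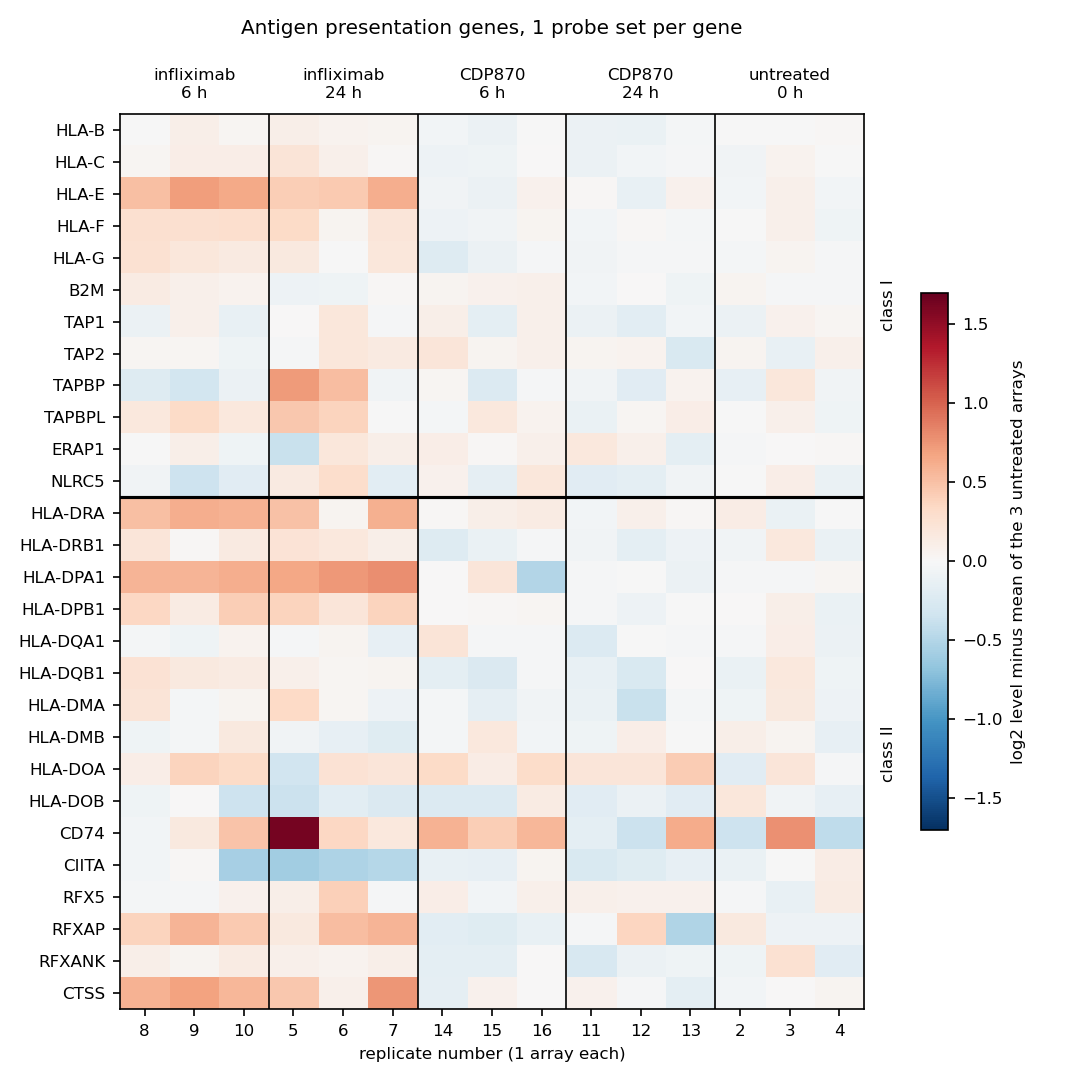
Log2 level of 28 members on each of the 15 arrays (columns, by replicate number) minus the mean of the 3 untreated arrays, for the tested probe set with the highest mean per gene. HLA-E, HLA-DPA1, HLA-DRA and CTSS are red on most infliximab arrays, CIITA is blue on the 3 infliximab 24 h arrays, and CD74 varies within groups.

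HLA-E, which presents leader peptides of other class I chains to the NKG2 receptors of natural killer cells, was the class I gene with the largest called difference from untreated cells. Probe set 200904_at stood at 6.65, 6.38 and 6.77 with infliximab for 6 h and at 6.90, 6.86 and 7.29 for 24 h. It stood at 5.94, 5.88 and 5.89 with CDP870 for 6 h, at 6.00, 5.94 and 5.96 for 24 h, and at 5.68, 5.98 and 6.04 in untreated cells. All 6 infliximab arrays lay above all 9 others. The difference from untreated cells was 0.70 ± 0.13 at 6 h (adjusted p = 0.00506) and 1.12 ± 0.13 at 24 h (adjusted p = 0.000138), a fold of 2.17. Against CDP870 it was 0.70 ± 0.13 at 6 h (adjusted p = 0.00475) and 1.05 ± 0.13 at 24 h (adjusted p = 0.000221).

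The other HLA-E probe sets gave smaller differences in the same direction. Probe set 200905_x_at stood at 8.62, 8.48 and 8.69 with infliximab for 6 h, at 8.42, 8.59 and 8.39 for 24 h, and between 7.85 and 8.06 on the other 9 arrays. It was higher than in untreated cells by 0.62 ± 0.10 at 6 h (adjusted p = 0.00131) and 0.49 ± 0.10 at 24 h (adjusted p = 0.00658). Against CDP870 the differences were 0.66 and 0.51, both called. The suffix _x_at marks probe sets that Affymetrix designed with probes shared between genes, so this one may also read other class I transcripts. Probe set 217456_x_at was called at 6 h only, by 0.28 ± 0.08 against untreated cells (adjusted p = 0.0400) and 0.36 against CDP870. The call against untreated cells held in 6 of 15 fits that each left out 1 array, with differences of 0.25 to 0.31, and was lost without any infliximab 6 h array, control replicate 2 or 4, any CDP870 6 h array or CDP870 24 h replicate 11 (adjusted p up to 0.126).

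The classical heavy chains HLA-B and HLA-C, the main peptide presenters to cytotoxic T cells among the members, gave 1 call between them. None of the 3 HLA-B probe sets was called in any comparison. The one with the highest mean, 209140_x_at, differed from untreated cells by 0.04 (95% interval -0.12 to 0.20) at 6 h and 0.07 (-0.09 to 0.23) at 24 h with infliximab. The other 2 differed by more at 6 h, 211911_x_at by 0.18 (-0.02 to 0.37) and 208729_x_at by 0.14 (-0.06 to 0.33). Against CDP870 at 6 h both differed by 0.24 (adjusted p of 0.108 and 0.122), and in both the infliximab 6 h arrays lay above all CDP870 6 h and all untreated arrays. Of 4 HLA-C probe sets, 211799_x_at alone was called, and only against CDP870 at 6 h, at 9.34, 9.24 and 9.24 with infliximab against 8.91, 8.98 and 8.97 with CDP870. It stood at 9.06, 9.25 and 9.36 with infliximab for 24 h, at 9.03 and 9.04 in CDP870 24 h replicates 11 and 12 with replicate 13 just below them, and at 8.89, 9.05 and 9.05 in untreated cells, so infliximab arrays were above the untreated ones at both times. The 6 h difference from CDP870 was 0.32 ± 0.09 (adjusted p = 0.0388) and held in 7 of 15 fits with 1 array left out, with differences of 0.29 to 0.34. It was lost without any of the 6 arrays compared, or without CDP870 24 h replicate 11 or 12 (adjusted p up to 0.133).

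HLA-F and HLA-G, non-classical class I chains, had some probe sets called higher with infliximab than with CDP870 at 6 h. HLA-F 221875_x_at stood at 8.67, 8.66 and 8.66 with infliximab and at 8.31, 8.33 and 8.44 with CDP870, a difference of 0.30 ± 0.09 (adjusted p = 0.0414). HLA-G 211528_x_at stood at 10.35, 10.45 and 10.39 with infliximab and at 9.97, 10.09 and 10.18 with CDP870, a difference of 0.32 ± 0.09 (adjusted p = 0.0320). HLA-G 210514_x_at stood at 7.98, 8.08 and 7.99 with infliximab and at 7.60, 7.55 and 7.74 with CDP870, a difference of 0.39 ± 0.10 (adjusted p = 0.0243). The 6 h groups did not overlap in any of these probe sets. All share the _x_at suffix, and neither gene was called against untreated cells or at 24 h. The tested HLA-F probe set without that suffix, 221978_at, was not higher with infliximab. Its means were 2.89 with infliximab for 6 h, 3.06 with CDP870 for 6 h and 2.90 in untreated cells. HLA-F 204806_x_at and HLA-G 211529_x_at and 211530_x_at were not called, with 6 h means of 8.47, 9.83 and 8.36 with infliximab and 8.22, 9.55 and 8.14 with CDP870. At 24 h HLA-F 221875_x_at stood at 8.44, 8.60 and 8.71 with infliximab and at 8.35, 8.41 and 8.36 with CDP870, and untreated cells stood at 8.38, 8.32 and 8.47. HLA-G 211528_x_at stood at 10.19, 10.39 and 10.36 with infliximab and at 10.14, 10.18 and 10.18 with CDP870 for 24 h, and at 10.16, 10.18 and 10.24 in untreated cells. In both 221875_x_at and 211528_x_at infliximab 24 h replicate 6 was the lowest of its group and lay within the untreated range. The HLA-F call was lost without any of the 6 arrays compared, control replicate 2, or CDP870 24 h replicate 11 or 12 (differences of 0.28 to 0.34, adjusted p up to 0.135). Both HLA-G calls were lost without any infliximab 6 h array or CDP870 6 h replicate 14 or 15, with differences of 0.26 to 0.44 and adjusted p up to 0.135.

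Beta-2 microglobulin, the light chain shared by all class I molecules, was not called in any comparison. Probe set 216231_s_at of B2M stood at 11.16, 11.24 and 11.18 with infliximab for 6 h and at 11.03, 11.12 and 11.02 for 24 h. With CDP870 it stood at 11.15, 11.17 and 11.18 for 6 h and at 11.05, 11.10 and 11.03 for 24 h, and in untreated cells at 11.14, 11.08 and 11.08. The infliximab 6 h arrays lay just above the untreated ones, the infliximab and CDP870 groups overlapped at each time, and the within-group SD of 0.039 was the smallest among the 28 members. The difference of infliximab from untreated cells was 0.09 (95% interval -0.06 to 0.25) at 6 h and -0.04 (-0.20 to 0.11) at 24 h. The second tested B2M probe set, 201891_s_at, differed by 0.24 at 6 h (adjusted p = 0.0864) and 0.12 at 24 h.

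No gene of class I peptide supply among the members was called. TAP1 and TAP2, which form the peptide transporter, differed from untreated cells by -0.04 (95% interval -0.26 to 0.17) and 0.00 (-0.23 to 0.22) with infliximab at 6 h. ERAP1, which trims peptides, differed by 0.01 (-0.27 to 0.29). For the tapasin gene TAPBP, which bridges TAP and the heavy chain, 208829_at stood at 9.57, 8.98 and 9.77 in infliximab 24 h replicates 6, 7 and 5, against 8.91 to 9.23 in untreated cells. Replicates 5 and 6 were thus high and replicate 7 was within the untreated range, and the difference was 0.40 (0.04 to 0.75, adjusted p = 0.183). The second tested TAPBP probe set, 1555565_s_at, was high on other arrays, at 6.89 in infliximab 6 h replicate 10 and 7.22 in infliximab 24 h replicate 5, but 5.04 in replicate 6. TAPBPL, a relative of tapasin, differed by 0.28 (0.03 to 0.53, adjusted p = 0.192) at 24 h.

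NLRC5, the transactivator of class I genes, has 1 probe set, 226474_at. It stood at 5.54, 5.67 and 5.37 with infliximab for 6 h, and at 6.03, 5.55 and 5.88 for 24 h. With CDP870 it stood at 5.80, 5.58 and 5.92 for 6 h and at 5.54, 5.56 and 5.67 for 24 h, and in untreated cells at 5.72, 5.62 and 5.84. All pairs of groups overlapped. Differences of infliximab from untreated cells were -0.20 (95% interval -0.48 to 0.08) at 6 h and 0.09 (-0.18 to 0.37) at 24 h, and neither was called. Without infliximab 24 h replicate 6 the 24 h value was -0.01.

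Among the class II chains the clearest differences lay in HLA-DP. HLA-DPA1, the alpha chain, had levels of 6.98, 6.95 and 6.94 with infliximab for 6 h and 7.10, 7.16 and 7.02 for 24 h in probe set 211990_at. With CDP870 the levels were 6.37, 6.57 and 5.87 for 6 h and 6.35, 6.36 and 6.27 for 24 h, and in untreated cells they were 6.35, 6.40 and 6.35. Every infliximab array lay above every other array, and 1 CDP870 6 h array, replicate 16, was low. The gene rose against untreated cells by 0.59 ± 0.13 at 6 h (adjusted p = 0.0141) and 0.73 ± 0.13 at 24 h (adjusted p = 0.00464). It was higher than with CDP870 by 0.69 ± 0.13 at 6 h (adjusted p = 0.00546) and 0.77 ± 0.13 at 24 h (adjusted p = 0.00297).

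Without the 3 arrays that stood apart, the 1 infliximab 24 h array left was above untreated cells by 0.78 in HLA-DPA1 211990_at, and was not called (adjusted p = 0.0634). The second tested HLA-DPA1 probe set, 211991_s_at, stood at 5.36, 5.34 and 5.35 with infliximab for 6 h and at 5.35, 5.42 and 5.47 for 24 h, against 4.74 to 5.17 on the other 9 arrays. It was called in all 4 infliximab comparisons, with differences of 0.36 and 0.43 from untreated cells and of 0.37 and 0.61 from CDP870 at 6 h and 24 h. Its call against untreated cells at 6 h was lost without any infliximab 6 h array or control replicate 2 or 4 (differences of 0.32 to 0.46, adjusted p up to 0.0732). Its call against CDP870 at 6 h was lost without any 1 of the 6 arrays compared (0.36 to 0.38, adjusted p up to 0.0611).

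HLA-DPB1, the partner beta chain, had 1 tested probe set, 201137_s_at. It stood at 6.15, 6.09 and 5.87 with infliximab for 6 h and at 5.94, 6.12 and 6.11 for 24 h, and at 5.74, 5.76 and 5.77 with CDP870 for 6 h and 5.72, 5.65 and 5.73 for 24 h. Untreated cells stood at 5.74, 5.63 and 5.84, so all 6 infliximab arrays were above the other 9. It was called only against CDP870 at 24 h, by 0.36 ± 0.09 (adjusted p = 0.0355). That call was lost without infliximab 24 h replicate 5 or 7, any CDP870 array of either time, and without the 3 arrays that stood apart, where 1 infliximab 24 h array was left (0.42, adjusted p = 0.0677). With 1 array left out the difference was 0.32 to 0.41 and the adjusted p up to 0.124. Against untreated cells the differences were 0.30 at 6 h (adjusted p = 0.0637) and 0.32 at 24 h (adjusted p = 0.0576).

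HLA-DRA, the alpha chain of all HLA-DR molecules, rose at 6 h. In 208894_at it stood at 8.79, 8.71 and 8.81 with infliximab for 6 h, and at 8.24, 8.80 and 8.70 in infliximab 24 h replicates 6, 7 and 5. With CDP870 it stood at 8.21, 8.29 and 8.33 for 6 h and at 8.15, 8.28 and 8.22 for 24 h, and in untreated cells at 8.32, 8.19 and 8.08. All infliximab 6 h arrays were above all CDP870 and untreated arrays, while infliximab 24 h replicate 6 lay among the untreated and CDP870 arrays. The difference from untreated cells was 0.57 ± 0.12 at 6 h (adjusted p = 0.0113) and 0.38 ± 0.12 at 24 h (adjusted p = 0.0815).

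The second HLA-DRA probe set, 210982_s_at, differed from untreated cells by 0.59 ± 0.13 at 6 h (adjusted p = 0.0106) and 0.41 at 24 h (adjusted p = 0.0671). Against CDP870 at 6 h both probe sets were higher by 0.49, with adjusted p of 0.0223 and 0.0248. The first was lost there without infliximab 6 h replicate 9 or 10 or any CDP870 6 h array, and the second without any of the 6 arrays compared (differences of 0.46 to 0.52, adjusted p up to 0.0894). HLA-DRB1, a DR beta chain, was not called, with differences from untreated cells of 0.12 (95% interval -0.09 to 0.33) at 6 h and 0.17 (-0.04 to 0.38) at 24 h. Probe set 215193_x_at, annotated to several class II genes and so not named as one, rose by 0.43 ± 0.09 at 6 h (adjusted p = 0.0126) and 0.37 ± 0.09 at 24 h (adjusted p = 0.0288). The 6 h call was lost without infliximab 6 h replicate 10 (adjusted p up to 0.0543 with 1 array left out), and the 24 h call without infliximab 24 h replicate 5 or control replicate 2 or 4 (0.28 to 0.46, adjusted p up to 0.0953).

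Compared with CDP870, 215193_x_at was higher by 0.47 at 6 h and 0.44 at 24 h. The 24 h call was lost without CDP870 24 h replicate 12 (adjusted p = 0.0517). A further probe set of several class II genes, 209312_x_at, was higher by 0.36 and 0.35 than with CDP870 at 6 h and 24 h. Its 6 h call held in 9 and its 24 h call in 3 of 15 fits with 1 array left out, with differences of 0.32 to 0.39 and 0.30 to 0.41. The 6 h call was lost without any of the 6 arrays compared. The 24 h call was lost without any infliximab 6 h, CDP870 6 h or CDP870 24 h array, infliximab 24 h replicate 5 or 7, or control replicate 2 (adjusted p up to 0.159), and without the 3 arrays that stood apart, from 1 infliximab 24 h array (0.36, adjusted p = 0.0872). The other 2 tested probe sets of several genes, 204670_x_at and 238900_at, were not called.

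HLA-DQB1, the beta chain of HLA-DQ, has 6 tested probe sets, all with a higher mean with infliximab than with CDP870 or in untreated cells at both times. Differences from untreated cells ran from 0.06 to 0.36 at 6 h and from 0.02 to 0.50 at 24 h, and none was called. Only 212998_x_at was called, and only against CDP870. It stood at 5.04, 5.03 and 4.87 with infliximab for 6 h and at 5.03, 5.16 and 5.00 for 24 h, against 4.77, 4.45 and 4.22 with CDP870 for 6 h, 4.51, 4.57 and 4.45 for 24 h, and 4.64, 4.73 and 4.82 in untreated cells. All infliximab arrays were above the other 9, and CDP870 24 h arrays were below the untreated ones. The differences from CDP870 were 0.50 ± 0.12 at 6 h (adjusted p = 0.0181) and 0.55 ± 0.12 at 24 h (adjusted p = 0.0122). At 6 h the call was lost without infliximab replicate 8 or 10 or CDP870 replicate 15 or 16 (0.37 to 0.65, adjusted p up to 0.0925). HLA-DQB1 211654_x_at, with the highest mean of the 6, differed from CDP870 by 0.32 at 6 h (adjusted p = 0.0602). HLA-DQA1, its alpha chain, differed from untreated cells by -0.01 (95% interval -0.23 to 0.21) at 6 h and -0.04 (-0.25 to 0.18) at 24 h.

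The HLA-DM and HLA-DO genes, whose products load class II molecules and restrain that loading, were not called in any comparison. HLA-DMA and HLA-DMB differed from untreated cells by 0.08 (95% interval -0.19 to 0.35) and 0.02 (-0.20 to 0.24) with infliximab at 6 h. HLA-DOB differed by -0.14 (-0.41 to 0.13). The HLA-DOA probe sets did not point one way, at 0.27, -0.12 and -0.30 at 6 h, and 2 further HLA-DOA probe sets did not pass the filter.

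CTSS, cathepsin S, had 3 tested probe sets. In 202902_s_at it stood at 8.39, 8.41 and 8.51 with infliximab for 6 h, and at 7.90, 8.57 and 8.28 in infliximab 24 h replicates 6, 7 and 5. With CDP870 it stood at 7.67, 7.89 and 7.82 for 6 h and at 7.89, 7.80 and 7.66 for 24 h, and in untreated cells at 7.78, 7.86 and 7.82. All infliximab arrays were above the others, with infliximab 24 h replicate 6 the nearest. The difference from untreated cells was 0.62 ± 0.13 at 6 h (adjusted p = 0.0120) and 0.43 ± 0.13 at 24 h (adjusted p = 0.0730), and without infliximab 6 h replicate 9 the 6 h call was lost (adjusted p = 0.0530). Against CDP870 it was 0.64 ± 0.13 at 6 h (adjusted p = 0.00870) and 0.47 at 24 h (adjusted p = 0.0524).

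Probe set 202901_x_at of CTSS gave larger differences, at 6.00, 6.31 and 6.00 with infliximab for 6 h, 5.93, 5.96 and 5.82 for 24 h, 5.29, 5.24 and 5.33 with CDP870 for 6 h, 5.49, 5.69 and 5.06 for 24 h, and 5.21, 5.25 and 5.41 in untreated cells. It rose by 0.81 ± 0.14 at 6 h (adjusted p = 0.00269), a fold of 1.76, and by 0.61 ± 0.14 at 24 h (adjusted p = 0.0157). The 24 h call was lost without control replicate 2 or 4 (0.57 to 0.67 with 1 array left out, adjusted p up to 0.0628), and without the 3 arrays that stood apart, with 1 infliximab 24 h array left (0.73, adjusted p = 0.0849). Against CDP870 it was higher by 0.82 at 6 h (adjusted p = 0.00232) and by 0.49 at 24 h (adjusted p = 0.0468). The 24 h difference was 0.31 to 0.63 and held in 3 of 15 fits with 1 array left out, those without control replicate 3, infliximab 6 h replicate 8 or CDP870 24 h replicate 12, and was 0.55 (adjusted p = 0.142) for the 1 infliximab 24 h array left without the 3 arrays that stood apart. The third probe set, 232617_at, was called only against CDP870 at 24 h, at 0.36 ± 0.09 (adjusted p = 0.0288), and lost without infliximab 24 h replicate 6 or any CDP870 24 h array (0.31 to 0.42, adjusted p up to 0.0991) and in the 1 infliximab 24 h array left without the 3 arrays that stood apart (0.38, adjusted p = 0.0840).

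**Figure D3:**
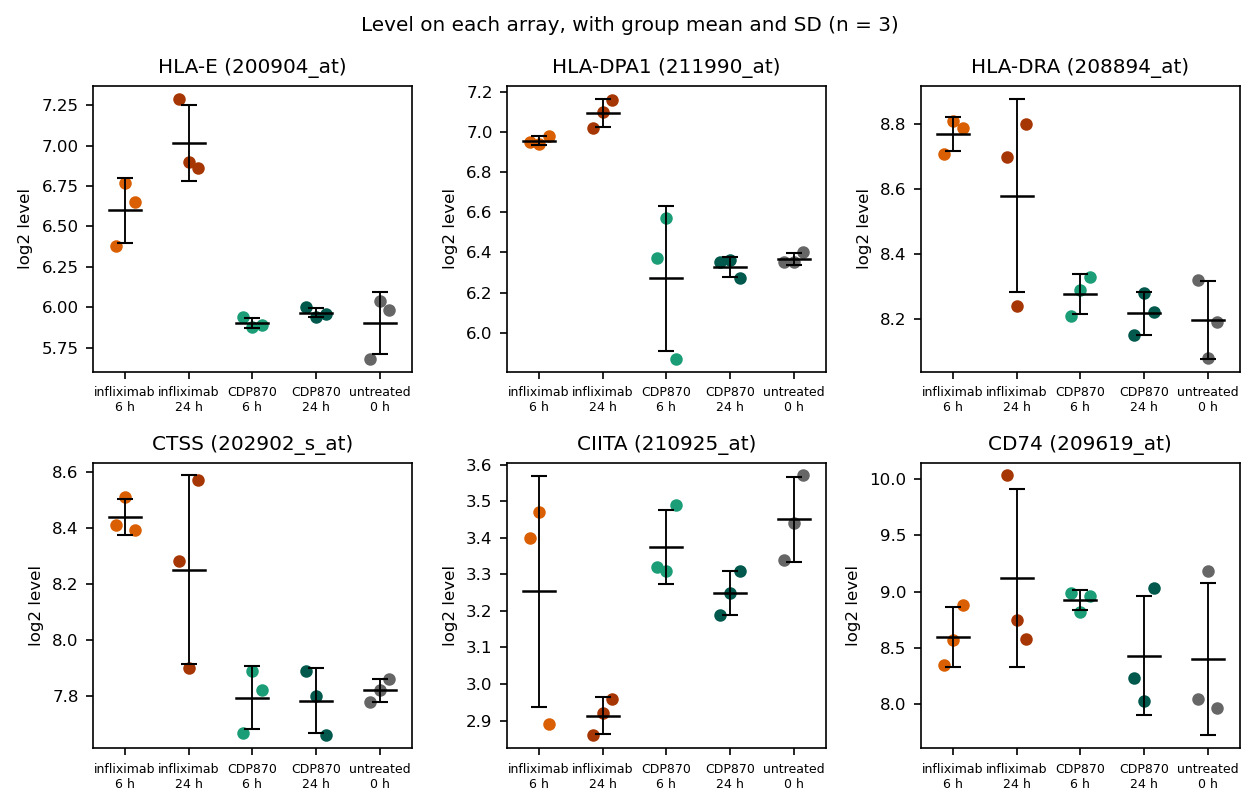
Log2 level (vertical axis) on each array for 6 members in the 5 groups, with the group mean and SD (n = 3). HLA-E and HLA-DPA1 lie above all other groups in both infliximab groups, HLA-DRA and CTSS have 1 low infliximab 24 h array each, CIITA is lower at infliximab 24 h, and CD74 has 1 high array in each of 3 groups.

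CD74, the invariant chain, was the most variable member. In 209619_at it stood at 8.88, 8.35 and 8.57 with infliximab for 6 h and at 8.75, 8.58 and 10.03 in infliximab 24 h replicates 6, 7 and 5. With CDP870 it stood at 8.99, 8.82 and 8.96 for 6 h and at 8.23, 8.03 and 9.03 in CDP870 24 h replicates 11, 12 and 13. Untreated cells stood at 8.05, 7.97 and 9.18 in replicates 2, 4 and 3, so 1 array of each of those 3 groups was far above the other 2. The within-group SD was 0.538, the largest of the 28 members. Differences of infliximab from untreated cells were 0.20 (95% interval -0.59 to 0.99) at 6 h and 0.72 (-0.07 to 1.51) at 24 h, neither called.

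The second CD74 probe set, 1567628_at, was high on the same arrays, at 5.49 in infliximab 24 h replicate 5, 4.20 in CDP870 24 h replicate 13 and 4.21 in control replicate 3. The third, 1567627_at, stood at 3.54, 3.28 and 3.65 with infliximab for 6 h and at 3.93, 3.94 and 3.93 with CDP870 for 6 h, a difference of -0.44 ± 0.13 (adjusted p = 0.0437). That call was lost without any of the 6 arrays compared or CDP870 24 h replicate 13 (-0.52 to -0.34, adjusted p up to 0.168), and after quantile normalization or centring of the arrays.

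CIITA, the class II transactivator, was the only member with a probe set called lower than in untreated cells. Of its 3 probe sets, only 210925_at passed the filter and was tested. The others had lower levels and did not both fall. Their means untreated, at infliximab 6 h and at 24 h were 2.06, 2.42 and 2.36 in 205101_at and 2.75, 2.26 and 2.65 in 211884_s_at. Probe set 210925_at stood at 2.89, 3.40 and 3.47 with infliximab for 6 h and at 2.92, 2.96 and 2.86 for 24 h. With CDP870 it stood at 3.32, 3.31 and 3.49 for 6 h and at 3.19, 3.25 and 3.31 for 24 h, and in untreated cells at 3.34, 3.57 and 3.44. The 3 infliximab 24 h arrays lay below the other groups, infliximab 6 h replicate 10 excepted. These levels are near the array medians of 2.93 to 3.07, where the size of a difference is least certain.

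The CIITA difference from untreated cells was -0.54 ± 0.13 at 24 h (adjusted p = 0.0226) and -0.20 (95% interval -0.47 to 0.08) at 6 h. The 24 h call was lost without control replicate 3 or 4 or infliximab 24 h replicate 5 or 6 (-0.59 to -0.48, adjusted p up to 0.0819), and without the 3 arrays that stood apart, where 1 infliximab 24 h array was left and the difference was -0.50 (adjusted p = 0.221). Against CDP870 the 24 h difference was -0.34 (-0.61 to -0.06, adjusted p = 0.149). CIITA fell at 24 h while HLA-DPA1 was called higher in the same arrays.

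RFXAP, a subunit of the RFX complex, was higher with infliximab than with CDP870 at 6 h in both its probe sets. In 229431_at it stood at 5.23, 5.17 and 5.37 with infliximab and at 4.61, 4.59 and 4.66 with CDP870 for 6 h. At 24 h it stood at 5.32, 5.37 and 4.95 with infliximab and at 4.77, 5.16 and 4.28 with CDP870, and untreated cells stood at 4.96, 4.71 and 4.70. The 6 h groups did not overlap and the 24 h groups did. The differences at 6 h were 0.64 ± 0.17 in 229431_at (adjusted p = 0.0346) and 0.65 ± 0.14 in 208492_at (adjusted p = 0.0111). The first was lost without any of the 6 arrays compared (0.58 to 0.68, adjusted p up to 0.122), and the second without CDP870 6 h replicate 16 (adjusted p up to 0.0545). Against untreated cells at 6 h they differed by 0.47 (adjusted p = 0.118) and 0.43 (adjusted p = 0.0762). The other subunits, RFX5 and RFXANK, differed by 0.00 (95% interval -0.23 to 0.23) and 0.10 (-0.14 to 0.33) there and were not called in any comparison.

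**Figure D4:**
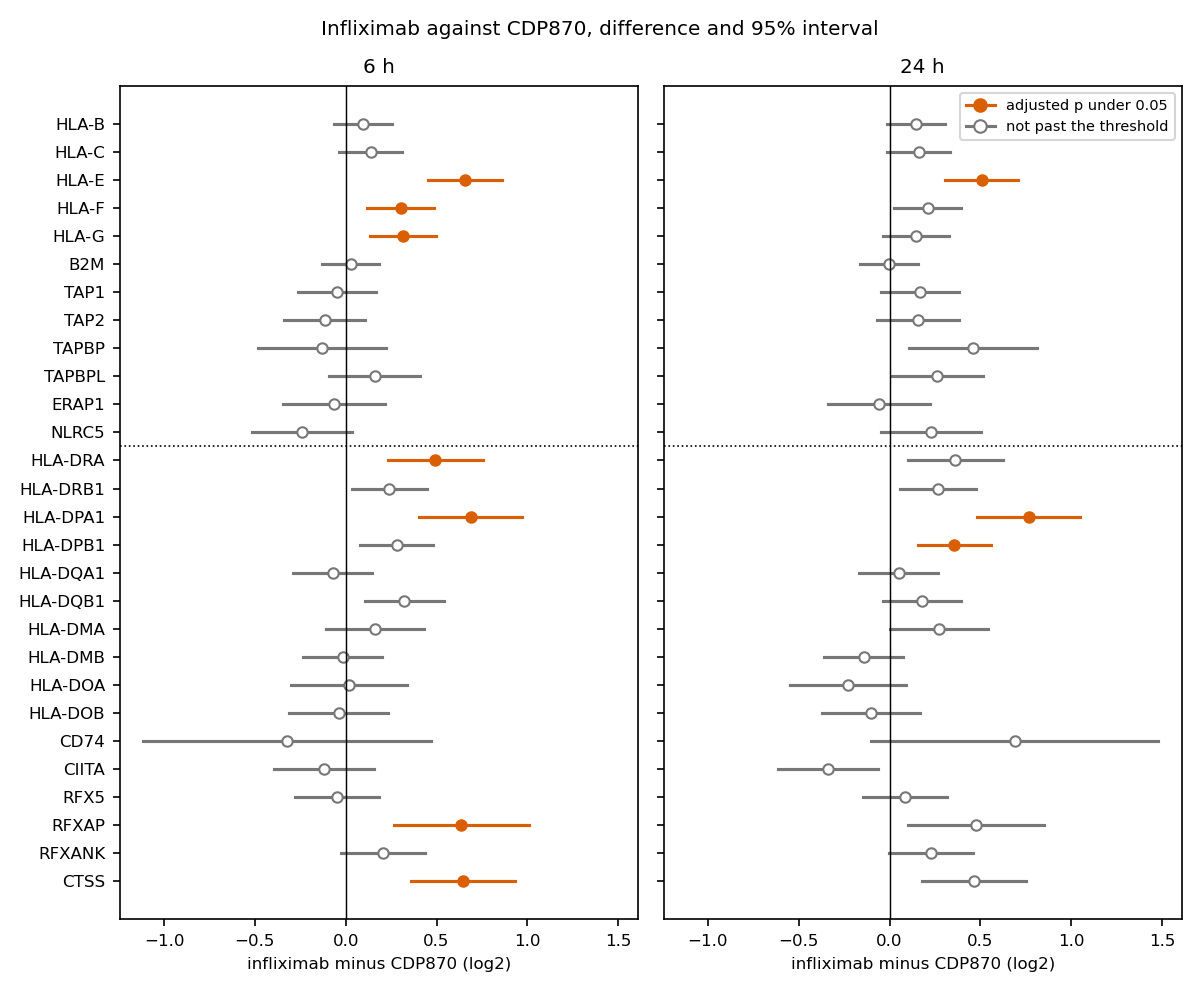
Difference of infliximab minus CDP870 (horizontal axis, log2) with its 95% interval for 28 members at 6 h (left) and 24 h (right), for the tested probe set with the highest mean per gene. Filled points are called. HLA-E and HLA-DPA1 are called at both times, and CD74 has the widest interval.

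Of the 46 calls among member probe sets, 9 held in all 23 settings tried, counting other normalizations, filters, weights and subsets of arrays. These were HLA-E 200904_at against untreated cells at 24 h and against CDP870 at both times, HLA-E 200905_x_at against CDP870 at 6 h, and HLA-DPA1 211990_at against CDP870 at both times. The others were HLA-DPA1 211991_s_at against CDP870 at 24 h, CTSS 202901_x_at against CDP870 at 6 h, and 215193_x_at of several class II genes against CDP870 at 6 h. For those at 24 h, 1 of the settings leaves a single infliximab array. When only the arrays of the groups compared were fitted, 1 class I and 1 class II probe set were called against untreated cells at 24 h, among 0.692% of all probe sets, against 6.57% with all 15 arrays in the fit, with the same differences and other errors.

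No member probe set was called between 24 h and 6 h for either agent, or in the test of whether the difference between infliximab and CDP870 changed with time, where 0% of all probe sets were called by limma. At an unadjusted p under 0.05, 4 member probe sets stood out between the infliximab times (HLA-E 200904_at, TAPBP 208829_at, NLRC5 and CIITA), 0 between the CDP870 times and 2 in the interaction (TAPBP 208829_at and NLRC5), while 11.9%, 4.97% and 9.14% of all did. Hence a call at 6 h and none at 24 h, as for HLA-DRA, does not show a difference between times. The missed threshold does not show that there is none either. For HLA-E 200904_at the 24 h level was above the 6 h level by 0.42 (95% interval 0.14 to 0.70, adjusted p = 0.300). Leaving out infliximab 24 h replicate 7, which leaves replicates 5 and 6 of the 3 arrays that stood apart, gave calls for 8.52% of all probe sets between the infliximab times and 3.18% in the interaction. TAPBP 208829_at was then higher at 24 h than at 6 h by 0.83 ± 0.13 (adjusted p = 0.00196), HLA-E 200904_at by 0.49 ± 0.14 (adjusted p = 0.0467) and NLRC5 by 0.43 ± 0.12 (adjusted p = 0.0465), and the TAPBP interaction was 0.82 ± 0.17 (adjusted p = 0.0232).

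Genes around the pathway were called in only a few cases, and counts this small are not read as a result about a list. Each gene is represented by its tested single-gene probe set of highest mean, and its other probe sets are not described. Beside them, 4.02% of all tested probe sets rose and 4.4% fell with infliximab at 6 h against untreated cells. At 24 h, 3.78% rose and 2.79% fell. Against CDP870, 5.1% were higher and 3.98% lower at 6 h, and 4.73% and 1.79% at 24 h. Of 9 tested genes of peptide supply and class I loading, 0 rose and 1 fell with infliximab at 6 h. CALR, the chaperone calreticulin, fell to a mean of 9.02, against 9.74 in untreated cells (-0.73 ± 0.21, adjusted p = 0.0423), and was also lower than with CDP870, by -0.80. Both CALR calls were unsteady, the first lost in 11 of 15 fits with 1 array left out (-0.80 to -0.60, adjusted p up to 0.158) and the second in 5 (-0.87 to -0.69, adjusted p up to 0.111). With the spike-in covariate the CALR differences were -0.37 and -0.56, neither called. Of 8 tested genes of endosomal processing, 0 were called against untreated cells. The protease gene CTSB was higher than with CDP870 by 0.34 at 6 h (adjusted p = 0.0201) and 0.33 at 24 h (adjusted p = 0.0295). The CTSB calls were lost in 3 and 4 of 15 fits with 1 array left out, with differences of 0.29 to 0.38. Of 19 tested regulators, 1 rose at each time, the co-activator gene CREBBP at 6 h by 0.37 ± 0.11 (adjusted p = 0.0441) and IRF1, an interferon-induced factor, at 24 h by 0.43 ± 0.12 (adjusted p = 0.0453). CREBBP was also higher than with CDP870 at 6 h, by 0.39 (adjusted p = 0.0347). With 1 array left out, the CREBBP call against untreated cells was lost in 10 of 15 fits (0.27 to 0.45, adjusted p up to 0.168), that against CDP870 in 6 (adjusted p up to 0.142), and the IRF1 call in 13 (0.31 to 0.54, adjusted p up to 0.140). With the spike-in covariate CREBBP differed by 0.15 from untreated cells and 0.24 from CDP870, and IRF1 was 0.28 above untreated cells in the 1 infliximab 24 h array left without the 3 arrays. Of 11 tested class I-like and co-stimulatory genes, only CD1D, which presents lipids to natural killer T cells, was called higher with infliximab. Its mean was 7.84 with infliximab at 6 h and 7.85 at 24 h, against 7.04 and 7.12 with CDP870 and 7.23 in untreated cells. CD1D differed from untreated cells by 0.62 ± 0.09 at both times and from CDP870 by 0.80 and 0.73, with adjusted p of at most 0.000690. All 4 CD1D calls held with any 1 array left out, and that against untreated cells at 6 h was lost with the spike-in covariate (0.55, adjusted p = 0.0763). With CDP870, 0 genes of these 4 lists were called against untreated cells, where 0% of all tested probe sets were.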

How the data were processed

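The deposited values are log2 probe set levels that the authors made for 15 Affymetrix arrays, with 1 column per array and none pooled. GCRMA and GCOS 1.3.0 are named, with no role, in the submitters' processing notes, and the between-array normalization is not given in the sources used here. RNA was labelled with biotin by the standard Affymetrix procedure per the labels' protocols. Array medians lay between 2.93 and 3.07. How background was treated is unknown, and no count depth exists for arrays, so the 3 arrays per group limit the precision. A change common to most genes would be missed.

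Groups came from the labels. Probe sets were matched to members by the platform annotation and Entrez number. Of 54675 probe sets, 62 controls were left out, and 28897 above their array's 50th percentile on at least 3 arrays were tested. The model, with a mean for each group and all arrays included, used lmFit, contrasts.fit and eBayes of limma 3.58.1 (R 4.3.3). Tests were two-sided, with Benjamini-Hochberg adjustment over all tested probe sets. The method was tested on simulated data. A gene is represented by its tested single-gene probe set of highest mean. Called members are named, per-array levels are given for the 12 members called with infliximab and for CIITA, NLRC5, B2M and CD74, and other members are given by range. Promoters come from the RefSeq table of GRCh38.p14. Members, lists and alternatives were chosen with earlier results of these data known. Figures were drawn with matplotlib 3.10.9. No unit other than the deposited log2 values was used. The alternatives are described at the end.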

Additional observations from a re-analysis of the deposited data

How the results depend on the processing

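Of the 46 calls among member probe sets, none changed direction in any of 8 alternatives, and 42 held after quantile normalization, 43 after median centring, 35 without the filter, 45 of 45 still tested under the stricter filter, 20 with the spike-in level as a covariate, 42 with array weights, 32 with only the arrays compared and 39 without the 3 arrays that stood apart. Those 39 are all 29 calls at 6 h and 10 of 17 at 24 h, where infliximab is 1 array, so the 24 h count says little of stability. For infliximab at 6 h against untreated cells, the class I count of 3 became 5 with centring, 5 with the stricter filter, 0 with the spike-in covariate, 10 with array weights and 7 without the 3 arrays, and the class II count of 7 became 0 with the covariate and 13 with weights. At 24 h, the class I count of 2 and class II count of 5 each became 1 with only the arrays compared. Against CDP870 at 6 h, the class I count of 7 became 4 without the filter, 3 with the covariate, 13 with weights and 13 without the 3 arrays, and the class II count of 12 became 3 with the covariate. Against CDP870 at 24 h, the class I count of 2 became 1 with only the arrays compared, and the class II count of 8 became 4 without the filter, 5 with weights and 2 with only the arrays compared. Calls over all probe sets shifted in these settings too. The share called for infliximab at 6 h against untreated cells was 8.42% in the fit as reported, 7.79% with centring, 11.6% with the stricter filter, 0.626% with the covariate, 15.9% with weights and 10.8% without the 3 arrays, and at 24 h 6.57% and, with only the arrays compared, 0.692%. Against CDP870 at 6 h it was 9.07% as reported, 4% without the filter, 2.6% with the covariate, 21.9% with weights and 19.5% without the 3 arrays, and at 24 h 6.51% as reported, 2.66% without the filter, 6.57% with weights and 1.15% with only the arrays compared. The cause of these shifts was not tested. With 1 array left out, class I and class II counts ran from 2 to 6 and 5 to 8 for infliximab at 6 h, 2 to 4 and 2 to 9 at 24 h, 3 to 9 and 4 to 13 against CDP870 at 6 h, and 2 to 4 and 4 to 10 against CDP870 at 24 h. For infliximab between times the class I range was 0 to 3, and for the interaction 0 to 1. The highest values came without infliximab 24 h replicate 7. Some differences that were not called turned direction, and at 24 h those without the 3 arrays rest on 1 infliximab array, replicate 7. CD74 209619_at at infliximab 6 h ran from -0.01 without control replicate 4 to 0.59 without control replicate 3, and was 0.08 against CDP870 with the covariate. B2M at infliximab 24 h was 0.01 after centring and 0.01 without the 3 arrays, and against CDP870 0.06 without the 3 arrays, 0.01 without infliximab 24 h replicate 6 and 0.01 without 5, and 0.02 without CDP870 24 h replicate 12, with a lowest value of -0.04. NLRC5 at infliximab 24 h was -0.12 without the 3 arrays and ran from -0.01 without infliximab 24 h replicate 6 to 0.23 without replicate 7, and was -0.04 against CDP870 without the 3 arrays. CIITA against CDP870 at 6 h ran from -0.23 without infliximab 6 h replicate 9 to 0.06 without replicate 10. No paired analysis was possible because replicate numbers run on from group to group. The DQ, DR and class I probe sets with shared probes limit how firmly a gene can be named.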
